A study of Homo sapiens with 6 samples.

Results

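A set of 10 human genes of iron storage, iron uptake and heme breakdown were followed in RNA-seq libraries labelled RN7SK knockout and control: FTH1, FTL, NCOA4, SLC40A1, TFRC, SLC11A2, IREB2, ACO1, HMOX1 and BLVRB. These 10 of the 16779 genes in the tables were chosen from a pathway by name and by their measured values in the same knockout against control comparison, so every value of theirs is a description and carries no test. The series holds 6 RNA-seq libraries of A549, an established lung adenocarcinoma cell line, per the labels. There are 3 libraries labelled RN7SK knockout and 3 labelled control with the genotype WT (wild type). RN7SK encodes 7SK, a small nuclear RNA that keeps the transcription elongation kinase P-TEFb inactive, and the comparison asks how mRNA levels differ in its absence. The labels name no further allele or agent, and do not say how RN7SK was disrupted, whether the knockout is 1 clone, or whether the replicates are separate cultures. The p-values given for other genes therefore measure the spread between these libraries, which may be technical.

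Cells take up iron bound to transferrin through the transferrin receptor, move it out of the endosome with the transporter SLC11A2, keep what is not in use inside the ferritin shell of FTH1 and FTL chains, and release it through the exporter SLC40A1. The RNA-binding proteins encoded by ACO1 and IREB2 bind a short hairpin, the iron-responsive element, when iron is scarce: bound in a 5′ untranslated region (UTR) it blocks translation, and bound in the 3′ UTR of TFRC it protects the mRNA from decay. Heme is a further source of iron, and heme oxygenase, encoded by HMOX1, opens its ring and frees the iron.

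The hairpins of 4 of these mRNAs are printed because they are the sites that both RNA-binding proteins are known to read. They were searched in the UTRs of GENCODE v29 protein-coding transcripts (GRCh38), sense strand only, as an unpaired C, a stem of 5 bases, the loop CAGTGN and 5 bases that pair back, with G-T pairs allowed. Each is given 5′ to 3′ in DNA letters over 30 bases, with the 6 loop letters in capitals. The 5′ UTR elements of FTH1 (chr11:61967573-61967602, minus strand), FTL (chr19:48965335-48965364, plus strand) and SLC40A1 (chr2:189580660-189580689, minus strand) read:
FTH1: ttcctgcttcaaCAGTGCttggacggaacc
FTL: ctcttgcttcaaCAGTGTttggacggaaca
SLC40A1: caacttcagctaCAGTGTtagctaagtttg
The TFRC 3′ UTR held 4 elements on the minus strand of chromosome 3, in transcript order at chr3:196050978-196051007, chr3:196050574-196050603, chr3:196050509-196050538 and chr3:196050462-196050491:
TFRC element 1: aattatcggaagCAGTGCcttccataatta
TFRC element 2: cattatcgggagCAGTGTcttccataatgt
TFRC element 3: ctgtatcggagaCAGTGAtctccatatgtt
TFRC element 4: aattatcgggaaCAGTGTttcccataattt
FTH1 and FTL carry the same stem on both sides of the loop, and SLC40A1 carries another. A match of this form was found in the 5′ UTR of 33 of 16454 genes (0.201%) and in the 3′ UTR of 126 of 16532 genes (0.762%), with 3 or more 3′ matches in 2 genes only, TFRC among them. No match of this form was found in the UTRs of the other 6 genes. The pattern allows no extra unpaired base in the stem and no other loop. It can therefore miss elements, in those genes and in TFRC alike.

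Read counts and FPKM (fragments per gene length and library depth) were deposited for each library, with total counts of 16018260 to 18488790 in the knockout libraries and 18612303 to 19357144 in the control libraries. Levels of 1 gene are given here in CPM, counts scaled to the library total with edgeR's TMM factors. Levels of different genes are set side by side in FPKM. Exceptions are the FTH1 to FTL count ratio and the CPM sums of ferritin and of markers, which compare the libraries and not the levels of the genes. The BEST1 counts are also set beside those of FTH1, since the 2 genes overlap. The tables hold 0 entries for RN7SK, so the knockout label could not be checked on its target. CDKN2A had 0, 1 and 2 counts in knockout replicates 1 to 3, against 963, 1005 and 923 in control replicates 1 to 3. CDKN2B had 0, 1 and 0 counts in the knockout libraries, against 216, 241 and 238 in the control libraries. A549 cells are known to lack both genes, so the control libraries go against their label, and all results are differences between libraries named by their labels. Summed markers of endothelial cells were at 4.19 to 4.92 CPM in the knockout libraries and 162.5 to 175.2 CPM in the control libraries. Of those 8 markers 3 averaged at least 1 CPM, and PECAM1, VWF, KDR and TEK were near the floor in every library. Summed lung epithelial markers were at 5950.9 to 6066.2 CPM in the knockout libraries and 3271.6 to 3488.8 CPM in the control libraries. Of those 9 markers 4 averaged at least 1 CPM and SFTPB was at 0. KRT19, EPCAM, NKX2-1 and SFTPC were near the floor in every library. Both sums therefore rest on the other listed genes and do not identify a cell type. Summed macrophage markers, 3 of 9 above that level and AIF1 at 0, were at 57.5 to 62.3 CPM in the knockout libraries and 37.0 to 40.9 CPM in the control libraries. Erythroid markers summed to 7.80 to 10.2 CPM in the knockout libraries and 10.1 to 14.7 CPM in the control libraries with HBA1 and HBA2 at 0, and hepatocyte markers summed to 0.80 to 1.40 CPM in the knockout libraries and 2.30 to 2.72 CPM in the control libraries. Of 11 erythroid markers 7 were in the tables and 1 averaged at least 1 CPM, as did 1 of 7 hepatocyte markers. The macrophage, erythroid and hepatocyte sums do not identify a cell type either. The part of these markers, and of the CDKN2A and CDKN2B difference, in the values of the iron genes was not tested.

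All 10 genes were measured in every library, with a lowest count of 13. With edgeR's quasi-likelihood test over 12929 genes and a Benjamini-Hochberg adjusted p of 0.05 as the threshold, 6 of the 10 were past it and higher in the knockout libraries (FTH1, FTL, NCOA4, SLC40A1, IREB2 and BLVRB), and 3 were past it and lower (TFRC, ACO1 and HMOX1). SLC11A2 was not past it. Of all tested genes 85% were past the threshold, 42% higher and 43% lower in knockout libraries, and the groups' CPM did not overlap in 9 of the 10 and in 85.6% of all tested genes. Since the genes were chosen on this comparison, nothing is read from these counts. Their median log2 fold change was 0.55, beside -0.01 over all tested genes, and it too follows from that choice and shows no shift. In absolute size the median over all tested genes was 0.65. NCOA4, TFRC, ACO1, IREB2 and SLC11A2 lay below that size, and FTH1, FTL, SLC40A1, HMOX1 and BLVRB lay above it. In bulk RNA, fewer cells that express a gene and less RNA per cell cannot be told apart.

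**Figure D1:**
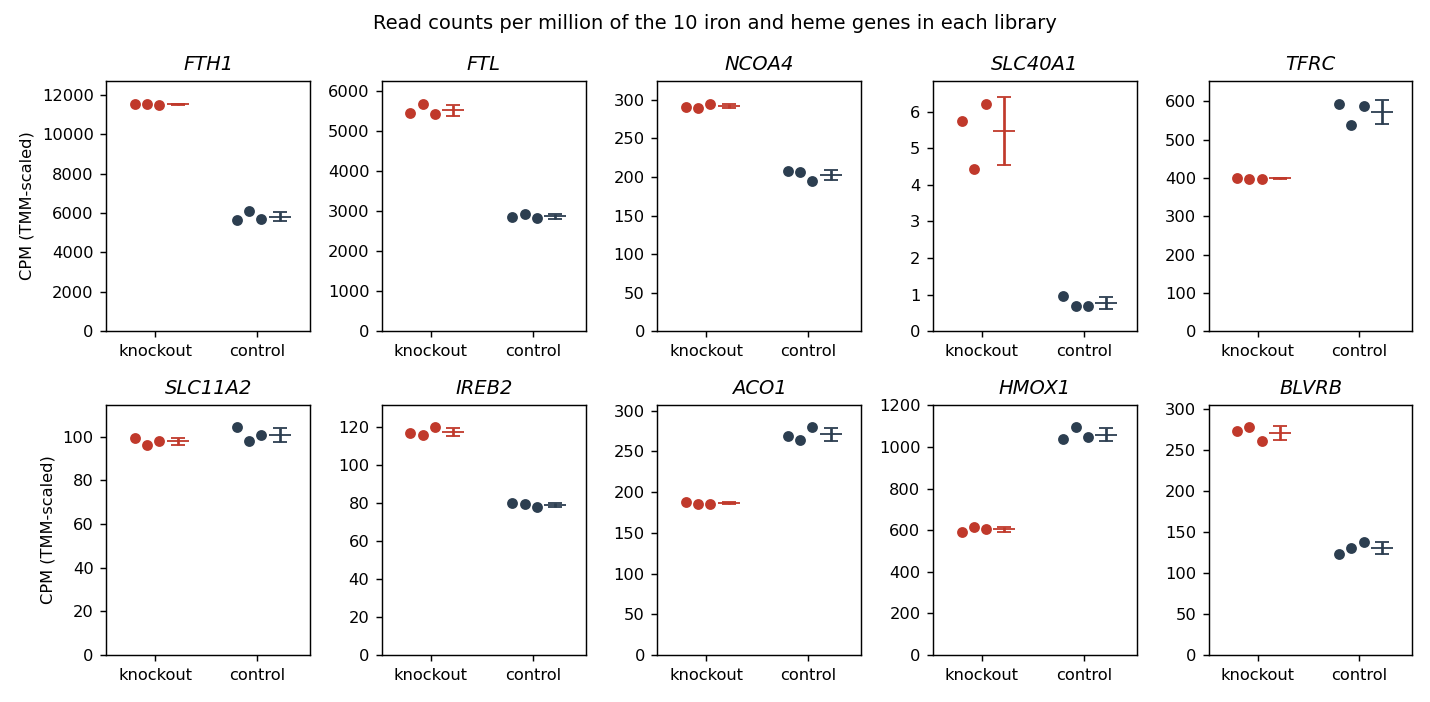
Level of each of the 10 iron and heme genes in each library, in CPM; the axis differs between panels, points are the 3 knockout libraries at left and the 3 control libraries at right, and the bars beside them are mean ± SD. FTH1, FTL, NCOA4, SLC40A1, IREB2 and BLVRB lie higher in every knockout library, TFRC, ACO1 and HMOX1 lie lower, and the SLC11A2 points overlap.

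Ferritin mRNA was the most abundant of these messages, and both chains stood at nearly 2-fold higher counts in the knockout libraries. FTH1 encodes the heavy chain, which oxidises ferrous iron as it enters the shell, and lies on chromosome 11 (61959718 to 61967660, minus strand, GRCh38). FTH1 had 11515.9, 11546.9 and 11489.4 CPM in knockout replicates 1 to 3, against 5655.5, 6087.9 and 5722.1 CPM in control replicates 1 to 3. Every knockout library was above every control library. The log2 fold change was 0.98 ± 0.036 (SE), 1.98-fold. By FPKM it ranked first among all genes in all 6 libraries, at 9497.3 ± 34.6 FPKM in knockout and 4611.3 ± 178.0 FPKM in control libraries (SD, n = 3 each).

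FTL encodes the light chain, which helps the iron core form, and lies on chromosome 19 (48965301 to 48966878, plus strand). It had 5458.4, 5684.6 and 5438.5 CPM in the knockout libraries, against 2849.2, 2925.4 and 2828.7 CPM in the control libraries. Every knockout library was above every control library, and the log2 fold change was 0.95 ± 0.036 (SE), 1.93-fold. In the per-length unit the gap was wider, 2.67-fold in FPKM, with 6294.7 ± 134.2 FPKM in knockout and 2361.9 ± 41.6 FPKM in control libraries (SD, n = 3 each). Its FPKM rank was 2 in each knockout library and 8, 9 and 8 in the control libraries. The gene length behind the FPKM was recovered from count over FPKM. For FTL it was 871 bases in the knockout tables and 1182 bases in the control tables, so the FPKM also carries a difference in length. Whether the reads of the 2 groups were also counted over different exons is not given in the sources used here. FTH1 lengths were 1203 bases in the knockout tables and 1229 bases in the control tables.

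The balance between the chains was alike in counts and differed per length. The ratio of FTH1 to FTL counts was 2.11, 2.03 and 2.11 in the knockout libraries, and 1.99, 2.08 and 2.02 in the control libraries, so the groups overlap. In FPKM that ratio was 1.53, 1.47 and 1.53 in knockout libraries, all below 1.91, 2.002 and 1.95 in control libraries, and it carries the FTL length difference given above. Ferritin from both chains summed to 17044.6 ± 163.5 CPM in knockout and 8689.6 ± 281.3 CPM in control libraries (SD, n = 3 each). GENCODE annotates 25 pseudogenes of FTH1 and 16 of FTL, none of them in the tables, and how reads that fit several of these places were counted is not given in the sources used here. An exon of FTH1 overlaps BEST1 on the opposite strand, and BEST1 had 132, 117 and 121 counts in knockout libraries against 14, 14 and 23 in control libraries, far below the 104703 to 214150 counts of FTH1.

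NCOA4 encodes the receptor that carries ferritin to the lysosome, where its iron is freed, and lies on chromosome 10 (46005088 to 46030714, minus strand). It had 290.8, 289.6 and 294.9 CPM in the knockout libraries, against 207.1, 206.5 and 195.2 CPM in the control libraries. The groups did not overlap, and the log2 fold change of 0.52 ± 0.043 (SE), 1.44-fold, was smaller than that of either ferritin chain. SLC40A1 encodes ferroportin, the only known iron exporter of human cells, and lies on chromosome 2 (189560579 to 189583758, minus strand). Its counts were 107, 74 and 101 in the knockout libraries, against 18, 13 and 13 in the control libraries. Every knockout library was above every control library, although this was the scarcest of the 10 messages. In CPM it stood at 5.46 ± 0.93 in knockout and 0.778 ± 0.169 in control libraries (SD, n = 3 each), a log2 fold change of 2.81 ± 0.23 (SE), 6.99-fold, and 2.71 to 2.98 when 1 library was left out. On log2(FPKM + 0.1) the difference was 2.37 and on log2(FPKM + 1) it was 1.045, a scale on which the added 1 exceeds every control value of this gene. At 1.21 to 1.72 FPKM in knockout and 0.183 to 0.263 FPKM in control libraries it was also the lowest of the 10 per length.

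On the uptake side, the mRNA of the receptor was lower in knockout libraries and that of the transporter overlapped between the groups. TFRC encodes the transferrin receptor and lies on chromosome 3 (196027183 to 196082189, minus strand). It had 401.0, 398.7 and 398.6 CPM in the knockout libraries, against 593.8, 537.7 and 586.9 CPM in the control libraries. The lowest control library lay above all knockout libraries, and the log2 fold change was -0.52 ± 0.042 (SE), 1.43-fold lower. SLC11A2, which carries ferrous iron from the endosome into the cytosol, lies on chromosome 12 (50979401 to 51028566, minus strand). It had 99.5, 96.2 and 98.0 CPM in the knockout libraries, against 104.2, 97.8 and 100.7 CPM in the control libraries. The groups overlapped, and the log2 fold change of -0.04 ± 0.049 (SE) was smaller than its error; it was 0.04 under upper quartile scaling, which moved the median of all genes by 0.09.

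The mRNAs of the 2 RNA-binding proteins that read the iron-responsive element differed in opposite directions. The levels of the proteins and their binding to RNA were not measured. ACO1 encodes iron regulatory protein 1, which is a cytosolic aconitase when it holds an iron-sulfur cluster, and lies on chromosome 9 (32384603 to 32454769, plus strand). It had 187.5, 185.5 and 185.7 CPM in the knockout libraries, against 269.1, 264.2 and 279.4 CPM in the control libraries. All knockout values lay below all control values, at a log2 fold change of -0.54 ± 0.043 (SE). IREB2 encodes iron regulatory protein 2, which is degraded when iron is plentiful, and lies on chromosome 15 (78437431 to 78501456, plus strand). Its level was 117.3, 115.9 and 120.0 CPM in the knockout libraries, against 79.9, 79.5 and 77.9 CPM in the control libraries. All knockout values lay above all control values, at a log2 fold change of 0.57 ± 0.049 (SE), 1.49-fold. In FPKM, IREB2 stood at 0.325 ± 0.0062 of the ACO1 level in knockout and 0.143 ± 0.0057 in control libraries (SD, n = 3 each).

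In heme breakdown, HMOX1 and BLVRB differed in opposite directions. Of the heme breakdown and transport list, 7 of 13 tested genes rose and 6 fell, beside 42% and 43% of all tested genes. In that list, HMOX2 and BLVRA stood at log2 fold changes of -0.73 and -0.17. Both are named here after their values were seen. HMOX1 encodes the inducible heme oxygenase, which turns heme into biliverdin, carbon monoxide and iron, and lies on chromosome 22 (35380361 to 35394214, plus strand). It had 592.3, 612.7 and 605.2 CPM in the knockout libraries, against 1037.3, 1093.4 and 1047.0 CPM in the control libraries. All knockout values lay below all control values, at a log2 fold change of -0.81 ± 0.039 (SE), 1.76-fold lower. BLVRB encodes a flavin reductase that reduces biliverdin IXβ and lies on chromosome 19 (40447765 to 40465840, minus strand). It had 272.6, 277.1 and 261.2 CPM in the knockout libraries, against 122.6, 129.7 and 137.5 CPM in the control libraries. All knockout values lay above all control values, at a log2 fold change of 1.06 ± 0.047 (SE), 2.08-fold. Per length, BLVRB FPKM was 0.871 ± 0.029 of HMOX1 FPKM in knockout and 0.228 ± 0.014 in control libraries (SD, n = 3 each).

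**Figure D2:**
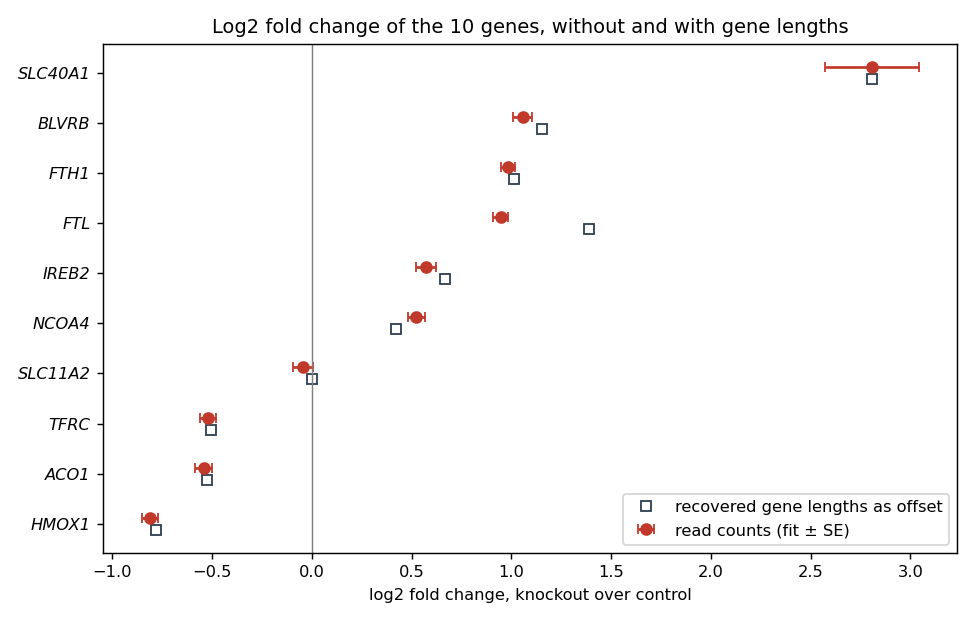
Log2 fold change of each of the 10 genes, knockout over control, from the edgeR fit on counts, with SE bars, and the same with recovered gene lengths as an offset. SLC40A1 lies farthest from 0 at 2.81, SLC11A2 lies at -0.04, and FTL moves from 0.95 in counts to 1.39 with lengths.

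The order of the levels per length was the same in both groups for the top 4 genes. In knockout libraries it ran FTH1, FTL, HMOX1, BLVRB, NCOA4, TFRC, ACO1, IREB2, SLC11A2 and SLC40A1, by mean FPKM. In control libraries TFRC and ACO1 stood above NCOA4, and SLC11A2 stood above IREB2. TFRC and ACO1 were neighbours whose ranges overlapped there, at 70.3 to 78.1 FPKM for TFRC and 70.0 to 73.9 FPKM for ACO1. Within each control library TFRC stood above ACO1. All other neighbours in either order had ranges that lay apart. Summed ferritin FPKM was 293.4 ± 3.75 times the TFRC FPKM in knockout and 93.3 ± 8.22 times in control libraries (SD, n = 3 each). This ratio also carries the FTL length difference, 871 bases in the knockout tables and 1182 bases in the control tables. SLC11A2 FPKM was 8.71 ± 1.48 times that of SLC40A1 in knockout and 61.5 ± 10.4 times in control libraries (SD, n = 3 each).

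**Figure D3:**
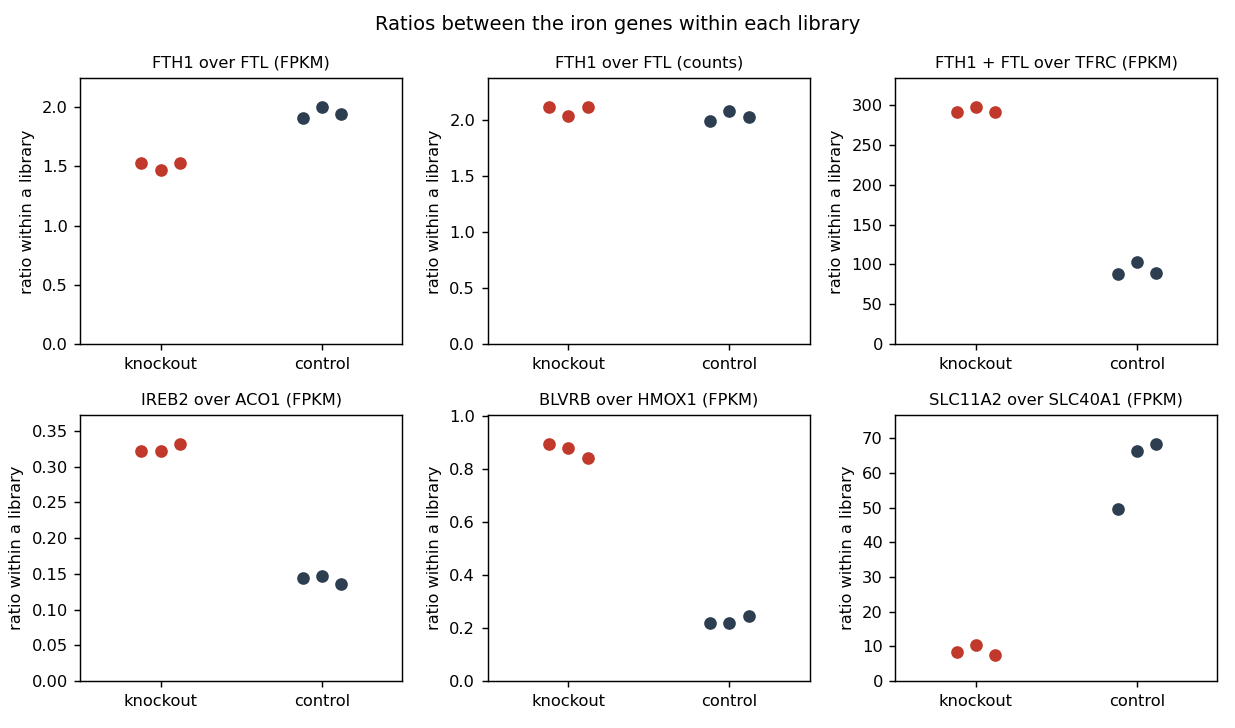
Ratios of FPKM levels between pairs of these genes in each library, with FTH1 over FTL also in counts; each point is a library, knockout at left and control at right, and every axis starts at 0. The FTH1 over FTL ratio is lower in knockout libraries in FPKM and overlaps in counts, and the BLVRB over HMOX1 ratio is higher.

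The genes whose pattern over the 6 libraries lay closest to each member were found by the root mean square difference of centred log2 CPM, among 10772 genes (10773 for SLC40A1). FTH1 lay closest to RDH11, at 0.021 log2 units, FTL to BSCL2 at 0.0257, and NCOA4 to AMZ2 at 0.0201. TFRC lay closest to PDE12 at 0.0175, SLC11A2 to COA1 at 0.0148, ACO1 to TNRC6A at 0.00882 and IREB2 to CDIPT at 0.0134. HMOX1 lay closest to CFL1 at 0.0145, BLVRB to PCED1A at 0.0302, and SLC40A1 to FSTL1 at 0.123. Between 4 and 107 genes lay within 2 times of these distances.

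Of 89 other iron and heme genes in the tables, 80 were tested, and 39 rose, 33 fell and 8 did not pass (edgeR, adjusted p under 0.05), at a median log2 fold change of 0.11. That is 90% past the threshold, beside 85% of all genes, of which 42% were higher and 43% lower. In the single lists below, of 4 to 21 tested genes each, 75% to 100% passed. Their counts are not read as results about a pathway. CIAO2A, CIAO2B, CIAO3, FDX2, FTMT and ALAS2 were not analysed here. The same hairpin was found in the 5′ UTR of 30 further genes, of which 25 were tested, 12 rose, 9 fell and 4 did not pass, at a median of 0.19. In the 3′ UTR it was found in 125 further genes, of which 110 were tested, 45 rose, 49 fell and 16 did not pass, at a median of -0.08.

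Among uptake and ferrireduction genes, 7 of 11 tested rose and 3 fell, at a median log2 fold change of 1.004. LCN2, which encodes the siderophore-binding lipocalin, rose to 197.7 ± 5.09 CPM in knockout libraries, against 33.7 ± 0.594 CPM in control libraries (SD, n = 3 each; edgeR adjusted p = 3.31e-30). STEAP1, of a metalloreductase family, rose by a log2 fold change of 1.38, the ferric reductase CYBRD1 by 1.32 and the metal transporter SLC39A8 by 1.25. Of the iron chaperone and export genes, 2 of 4 tested rose and 1 fell. PCBP1, a chaperone that delivers iron to ferritin, rose by 0.39, its relative PCBP4 fell by 1.96, and PCBP2 had a log2 fold change of 0.05 that did not pass. CP, which encodes the ferroxidase ceruloplasmin, rose by 0.53.

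Of the sensing genes, 3 of 8 tested rose and 5 fell, at a median of -0.38. ERFE, which encodes erythroferrone, a hormone that lowers hepcidin, fell to 11.3 ± 1.07 CPM in knockout libraries, against 46.1 ± 2.88 CPM in control libraries (SD, n = 3 each; edgeR adjusted p = 8.18e-22). NEO1, which encodes a co-receptor in hepcidin control, rose by 1.69, HERC2 rose by 0.69 and HERC4 fell by 1.19. Mitochondrial iron and iron-sulfur genes split 10 rose and 7 fell of 21 tested, at a median of 0.06. SLC25A37, the mitochondrial iron importer mitoferrin, fell by 1.95 in counts and by 0.36 with lengths as an offset, since its recovered length was 2743 bases in the knockout tables and 8244 bases in the control tables. HSPA9 rose by 0.38 in counts, a call that was lost with lengths as an offset (0.05), BOLA3 fell by 0.73 and CISD3 rose by 0.65. In cytosolic iron-sulfur assembly 2 of 7 rose and 4 fell, with GLRX3 at -0.88, CIAPIN1 at -0.56 and NUBP1 at 0.72. MMS19 fell by 0.30 in counts but stood at 0.39 with lengths as an offset, so its direction is not settled.

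In heme synthesis 4 of 10 tested genes rose and 5 fell, at a median of -0.10. ALAS1, which encodes the first enzyme of the pathway, fell by 0.50 and UROD fell by 0.97, whereas UROS rose by 0.82 and CPOX by 0.64. Heme breakdown and transport split 7 rose and 6 fell of 13 tested, at a median of 0.35. POR, which passes electrons to heme oxygenase, rose to 542.0 ± 9.75 CPM in knockout libraries, against 106.4 ± 5.51 CPM in control libraries (SD, n = 3 each; edgeR adjusted p = 1.03e-30). The porphyrin transporter ABCB6 rose by 2.15 and SLC46A1, a folate and heme carrier, by 1.39, and SLC48A1, which moves heme out of lysosomes, fell by 2.12. Of the regulators of HMOX1 and ferritin transcription 4 of 6 rose and 2 fell, with MAFG at 1.42, MAFK at 0.53, KEAP1 at 0.28 and MAFF at -0.63.

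**Figure D4:**
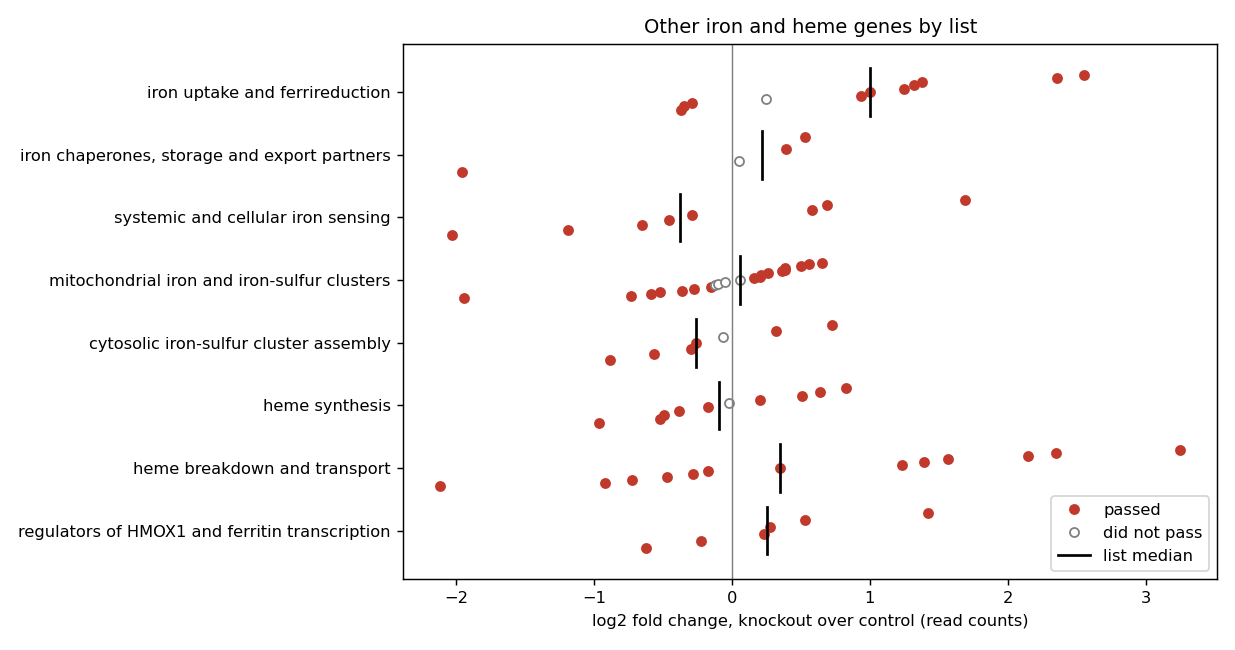
Log2 fold change, knockout over control, of each tested gene in the 8 other iron and heme lists; filled points passed edgeR's adjusted p of 0.05, open points did not, and the vertical mark is the list's median. Genes lie on both sides of 0 in every list, with medians between -0.38 for sensing and 1.004 for uptake.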

How the data were processed

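Libraries were made with an mRNA kit from RNA extracted with TRIzol, per the labels. HISAT2 2.2.1.0, Trimmomatic 0.36, FastQC 0.11.5 and build GRCh38 are named in the submitters' processing notes. Counter, annotation and strand setting: not given in the sources used here. Per library, the authors deposited whole-number read counts per gene and FPKM values, with 16779 genes each. Symbols, places and UTRs are from GENCODE v29 and RefSeq. Counts were fitted with edgeR 4.0.16 in R 4.3.3 (filterByExpr, TMM, robust quasi-likelihood, two-sided, Benjamini-Hochberg over 12929 genes, no replicate block). The method was checked on simulated data. Few genes changed in that simulation, unlike in these libraries, so it cannot vouch for the share of calls here. Libraries held 16018260 to 19357144 counts, which limits precision most for scarce genes such as SLC40A1, and the spread between libraries limits it too. Gene lengths recovered from count over FPKM were whole within 0.05 bases and differed between the groups' tables. No pair of libraries agreed within sampling noise. The members and lists were chosen with earlier results of these data known. Beyond the members, up to 4 genes per list with at least 5 CPM were named, by smallest p. Alternatives were other scalings, filters, DESeq2 1.42.0, limma 3.58.1, FPKM with pseudocounts 0.1 and 1, lengths as an offset, a replicate block, and leaving out each library.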

Additional observations from a re-analysis of the deposited data

How the results depend on the processing

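The number of genes past the threshold ranged from 10327 of 12929 tested (adjusted p of 0.01) to 11732 of 16028 tested (no filter), around 10992 of 12929. When 1 library was left out it ranged from 10697 of 13038 to 11132 of 13076. For the other iron and heme genes it ranged from 67 to 72 of 80 tested (87 tested with no filter), and from 68 to 71 without 1 library. Same-numbered libraries showed no shared deviation (correlations of deviations 0.018, -0.0248 and -0.00775), which cannot tell whether they were handled together. A replicate block gave 10910 genes and 72 other iron and heme genes. The 9 iron genes past the threshold had the same sign in all 17 alternatives, but SLC40A1 was at 2.37 on log2(FPKM + 0.1) and 1.045 on log2(FPKM + 1), against 2.81 in counts. Upper quartile scaling moved the median of all genes by 0.09. MMS19 reversed to 0.39 with lengths as an offset, 0.41 on log2(FPKM + 0.1) and 0.39 on log2(FPKM + 1); the lengths behind the FPKM differ between the groups, and other causes were not tested. HSPA9 lost its call with lengths as an offset (0.05) and on both FPKM scales (0.08 each), and PCBP2 passed under upper quartile scaling at 0.13. Low counts limit the precision of SLC40A1 most.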

Other observations

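Gene lengths moved some of the other iron and heme genes. With recovered lengths as an offset, 68 of 80 tested genes were past the threshold, against 72 in counts; 63 were past it in both with the same sign and 2 with the opposite sign. ISCA2, an iron-sulfur carrier in mitochondria named here after its values were seen, was at a log2 fold change of 0.36 in counts and -0.88 with lengths, and MMS19 at -0.30 in counts and 0.39 with lengths. The log2 fold change moved by more than 0.58 in 9 of the 80 genes.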
